A study of Mus musculus with 69 samples.

Results

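Gene expression was examined in the lungs of 10 mice 28 days after 1 instillation of the low or the middle dose of the nanomaterial (NM) NRCWE-025, a titanium dioxide (nano-TiO2), and of 5 vehicle controls of the same day. The members were chosen by label alone: 5 mice received 18 µg and 5 received 54 µg, so that 15 of the 69 arrays of the series entered. All were female C57BL/6 mice, bought at 5 to 7 weeks of age and kept for 1 to 3 weeks before exposure. The NM was given into the trachea once, dispersed in water with 2% serum, and the vehicle mice received the water with serum alone. The series also holds 162 µg of NRCWE-025 (4 mice on day 28), the same 3 doses of NRCWE-030, and a day 1 collection of every group. RNA came from a small frozen section of the whole lung, so cell types were not separated. Lung RNA of 1 mouse carried Cy5 on each array, a purchased reference pool of mouse RNA carried Cy3, and values are given as log2 lung over reference.

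Instilled particles reach the alveoli and are taken up mainly by alveolar macrophages, and nano-TiO2 is poorly soluble and can persist in the lung. Inflammation after particle exposure is marked by chemokines, acute phase proteins and neutrophils. Heat shock proteins are chaperones that fold other proteins, and their genes are induced by heat shock factor 1 under heat and other stress, whereas Cirbp, the cold-inducible RNA-binding protein, is raised by mild cooling. The question was which of these systems, if any, differed from vehicle 4 weeks after a low or middle dose.

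Markers of lung cell types were detected, but detection alone does not identify the tissue. Of 19 atrial and ventricular muscle markers, for instance, 17 were well above background on every vehicle array. All 13 surfactant and alveolar type 2 markers tested, among them Sftpc, which encodes surfactant protein C, were well above background on every vehicle array, as were all 8 alveolar type 1 markers and all 17 endothelial markers. The share of spots well above background in Cy5 was 58% to 71.3% on the vehicle arrays, 51.8% to 66.9% at 18 µg and 49.1% to 67.7% at 54 µg. The 54 µg and the 18 µg array scanned on the last day, replicate 5 of each dose, stood apart on the first principal component, at -49.15 and -27.52 against -16.42 to 21.95 for the other 17 day 28 arrays of vehicle and NRCWE-025. Vehicle arrays were scanned on 5 days, and 4 of the 10 treated arrays shared a scan day with one of them. Slides and scan days split these arrays in the same way, so their effects cannot be told apart. The results with and without these arrays are given beside the counts.

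Few genes changed. With both doses pooled, 17 of 18660 genes (0.0911%) differed from vehicle by limma at an adjusted p under 0.05, of which 6 (0.0322%) were higher and 11 (0.0589%) lower. Their log2 differences ranged in size from 0.29 to 1.39, and for 1 gene the difference exceeded 1. All 17 lay on the same side of vehicle at 18 and at 54 µg. In 14 of them the 10 treated arrays did not overlap the 5 vehicle arrays, while 76 of all genes tested (0.407%) were separated in this way, 29 with the treated arrays above (0.155%) and 47 below (0.252%). At an unadjusted limma p under 0.05 there were 1907 genes (10.2%), 913 higher and 994 lower, where chance gives 933.

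The count depended on how slides and scan days were treated. It was 54 with slide or scan day as a random block, with all 17 genes among them, and 185 with scan day as a fixed block in a fit of all 69 arrays, with 15 of the 17. Without the treated arrays of the last scan day it was 25, with 13 of the 17. With only the 4 treated arrays that shared a scan day with a vehicle array, limma called 0 genes (1339 unadjusted), and with the other 6 treated arrays it called 6. Within each of the 2 shared scan days, each with 2 treated and 1 vehicle array, all 17 differences had the sign of the whole comparison, but these arrays were part of it. Of single arrays, vehicle replicate 5 moved the count most, to 37 when left out, and vehicle replicate 3 next, to 7. It was 9 without vehicle replicate 1, 10 without replicate 2 of 18 µg, 10 without replicate 5 of 18 µg and 11 without replicate 1 of 54 µg.

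**Figure D1:**
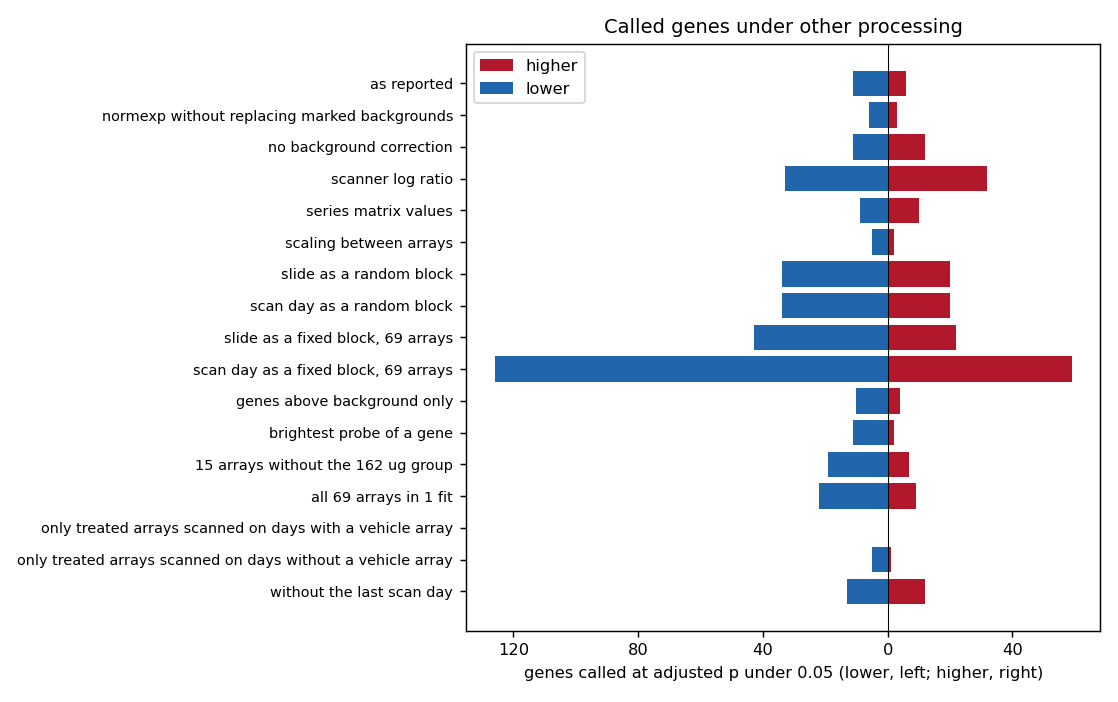
Number of genes called at an adjusted p under 0.05 for 18 and 54 µg together against vehicle, lower to the left and higher to the right, as reported and under each alternative. The count runs from 0, with the treated arrays that shared a scan day with vehicle, to 185, with scan day as a fixed block.

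**Figure D2:**
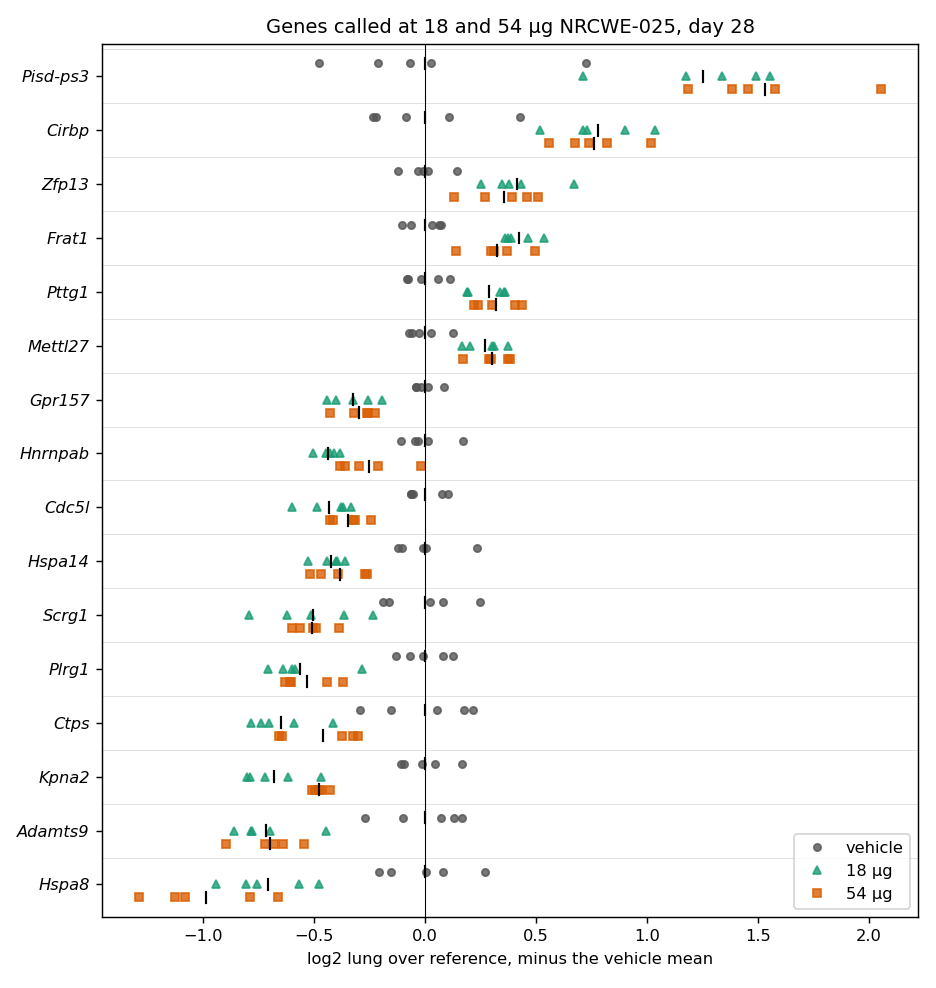
Levels of called genes on each day 28 array of vehicle (grey circles), 18 µg (green triangles) and 54 µg (orange squares), as log2 lung over reference minus the mean of the vehicle arrays. Short black lines mark group means. Treated and vehicle arrays overlap in Pisd-ps3, Zfp13 and Hnrnpab and are separate in the other genes shown.

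Of the called genes, Hspa8 and Cirbp belong to the list of heat shock and chaperone genes and moved in opposite directions. Hspa8, which encodes the constitutive chaperone Hsc70, fell, whereas Cirbp rose. Hspa14, a ribosome-associated member of the Hsp70 family that is not in the list, fell too. On the vehicle arrays Hspa8 read -1.42, -1.36, -1.20, -1.13 and -0.94 (log2 lung over reference). It read -2.15, -2.01, -1.96, -1.78 and -1.69 at 18 µg, and -2.49, -2.33, -2.29, -1.99 and -1.87 at 54 µg. Every treated array therefore lay below every vehicle array, and the log2 difference was -0.85 ± 0.12 (SE), a fold of 0.556 (limma, adjusted p = 0.0042). Both probes of Hspa8 were lower, at -0.66 and -1.03.

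Cirbp went the other way. Its vehicle arrays read 0.62, 0.64, 0.77, 0.97 and 1.28. At 18 µg they read 1.37, 1.57, 1.59, 1.76 and 1.90, and at 54 µg 1.42, 1.53, 1.60, 1.68 and 1.87. The highest vehicle array lay just under the lowest treated one, and the log2 difference was 0.77 ± 0.11 (SE), a fold of 1.71 (limma, adjusted p = 0.0042). Hspa14 ranged from -0.52 to -0.17 on vehicle arrays and from -0.93 to -0.66 on treated arrays, again without overlap, with a log2 difference of -0.40 ± 0.06 (SE, adjusted p = 0.0123). Within the shared scan days, Hspa8 differed by -0.90 and -0.65, Hspa14 by -0.32 and -0.39, and Cirbp was higher by 0.75 or more. Mean Hspa8 was -1.21 in the day 28 vehicle, -1.88 in the day 1 vehicle and -2.06 at the lower doses on day 28. For Cirbp these means were 0.86, 1.31 and 1.63, and for Hspa14 -0.40, -0.41 and -0.80. A difference between the vehicle groups and one due to the NM cannot be told apart by these means.

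The list of 24 heat shock and chaperone genes, all tested, held 1 called gene that rose (Cirbp) and 1 that fell (Hspa8). At an unadjusted p under 0.05 the members were 1 higher and 10 lower, against 4.89% higher and 5.33% lower over all genes. The median of the list was -0.15 (log2), beside 0.00087 over all genes, and 7 members were above 0. Against the same vehicle arrays the list median was -0.36 at 162 µg and -0.35 for NRCWE-030 at 18 and 54 µg. Hspa8 and this list were chosen with earlier results of these data known, so the count is no independent evidence. The cold-inducible Rbm3, often named with Cirbp, differed by -0.09 ± 0.16 (SE, adjusted p = 0.887).

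The stress-inducible members did not pass the adjusted threshold, and their vehicle arrays were spread widely. Genes of this paragraph were singled out after their values were seen. Hspa1a, which encodes the inducible chaperone Hsp70, read 0.73, 0.88, 2.20, 2.34 and 2.96 on the vehicle arrays. Its 10 treated arrays lay between 0.67 and 1.11. Thus 3 vehicle arrays stood above all treated arrays and the other 2 within their range, and the difference was -0.89 ± 0.26 (SE, adjusted p = 0.218). Hspa1b, a near-identical copy whose signal cannot be fully separated from that of Hspa1a, had the same pattern, with 3 vehicle arrays at 0.48, 0.52 and 0.78, above every treated array, and a difference of -0.54 ± 0.13 (SE, adjusted p = 0.128). Dnajb1, an Hsp40 co-chaperone, differed by -0.65 ± 0.13 (SE, adjusted p = 0.0589) and Chordc1, an Hsp90 partner, by -0.39 ± 0.08 (SE, adjusted p = 0.0701). Both were called with slide as a random block, at adjusted p = 0.0368 and 0.048, and without vehicle replicate 4 (-0.78 and -0.46) or 5 (-0.75 and -0.44). Hspa1a was called without vehicle replicate 5, at -1.17 (adjusted p = 0.0465), and Hspa1b without vehicle replicate 4, at -0.69 (adjusted p = 0.0164). Dnaja1, another Hsp40, differed by -0.38 ± 0.10 (SE, adjusted p = 0.178) as the median of 3 probes that read -0.72, -1.12 and -0.37, and by its brightest probe it was called (adjusted p = 0.00146). On the 2 shared scan days these genes differed unequally. On the first of them the difference was -1.30 for Hspa1a, -0.67 for Hspa1b, -0.77 for Dnajb1, -0.62 for Chordc1 and -0.53 for Dnaja1. On the other it was 0.017 for Hspa1a, -0.030 for Hspa1b, -0.13 for Dnajb1, -0.19 for Chordc1 and 0.022 for Dnaja1.

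**Figure D3:**
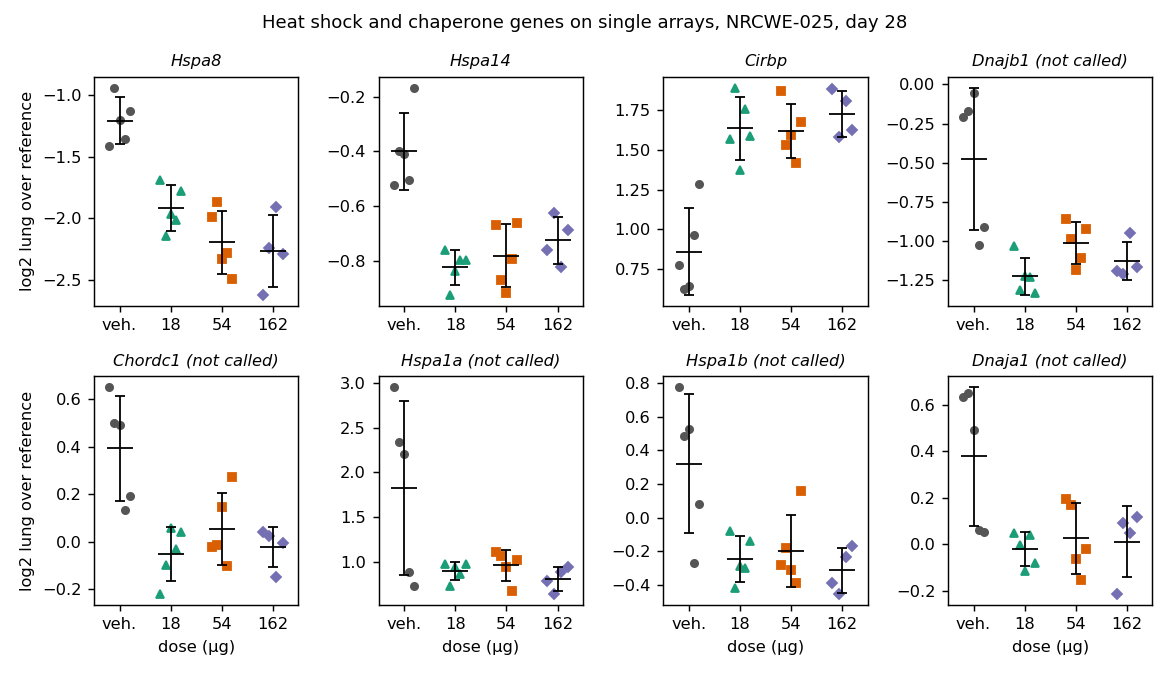
Levels of 8 chaperone and temperature-responsive genes (log2 lung over reference) on single day 28 arrays of vehicle and of NRCWE-025 at 18, 54 and 162 µg, with the mean and SD of each group as black bars. Hspa8, Hspa14 and Cirbp separate treated from vehicle arrays, whereas in Hspa1a 3 of 5 vehicle arrays stand above the rest and 2 lie with the treated arrays.

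Promoter sequence was read for these genes because heat shock factor 1 binds runs of inverted GAA units. The letters searched were GAANNTTC and TTCNNGAA, each of which reads the same on both strands, in the 250 bases upstream of the start in RefSeq for GRCm38.p6; the 2 forms can overlap. A window was found for 14839 of the genes tested, of which 5.77% held GAANNTTC and 6.36% held TTCNNGAA. Of the 10 list members lower at an unadjusted p under 0.05, 9 had a window. GAANNTTC was in 4 of them, Hspa1a, Hspa1b, Dnaja1 and Fkbp4, and TTCNNGAA was in none. Over the whole list, 19 of 24 members had a window, of which 6 (31.6%) held GAANNTTC and 2 (10.5%) TTCNNGAA. The other two members with GAANNTTC, Hspb1 and Hspe1, were not among those lower at that level. Of the 17 called genes, 13 had a window and none of these held GAANNTTC or TTCNNGAA. Hspa8 had no window, so its promoter was not searched. Below are the windows of Hspa1a (chr17:34972157-34972406, minus strand), Hspa1b (chr17:34959239-34959488, minus strand), Dnaja1 (chr4:40722218-40722467, plus strand) and Cirbp (chr10:80167589-80167838, plus strand), 5′ to 3′, each ending at the base before the start. They show the shared match of the Hspa1a and Hspa1b pair, the match of Dnaja1 and, for contrast, the gene that rose. Capitals mark GAANNTTC.
Hspa1a: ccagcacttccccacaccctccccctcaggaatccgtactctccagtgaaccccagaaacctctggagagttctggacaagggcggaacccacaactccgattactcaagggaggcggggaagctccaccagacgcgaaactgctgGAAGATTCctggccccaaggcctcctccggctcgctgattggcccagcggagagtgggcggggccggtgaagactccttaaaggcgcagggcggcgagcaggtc
Hspa1b: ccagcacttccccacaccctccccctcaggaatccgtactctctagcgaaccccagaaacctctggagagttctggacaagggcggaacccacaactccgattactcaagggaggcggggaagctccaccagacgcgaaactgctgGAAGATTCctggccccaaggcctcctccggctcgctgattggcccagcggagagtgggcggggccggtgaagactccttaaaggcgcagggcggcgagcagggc
Dnaja1: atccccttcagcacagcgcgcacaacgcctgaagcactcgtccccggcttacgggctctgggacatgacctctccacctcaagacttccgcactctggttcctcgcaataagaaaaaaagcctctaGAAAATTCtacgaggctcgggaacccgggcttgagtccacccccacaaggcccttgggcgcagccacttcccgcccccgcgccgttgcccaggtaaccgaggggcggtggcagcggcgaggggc
Cirbp: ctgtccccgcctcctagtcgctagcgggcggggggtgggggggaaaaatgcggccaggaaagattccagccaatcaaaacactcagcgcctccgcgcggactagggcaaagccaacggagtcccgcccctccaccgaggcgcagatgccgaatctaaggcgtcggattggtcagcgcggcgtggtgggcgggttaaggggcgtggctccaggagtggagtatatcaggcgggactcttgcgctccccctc

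Kpna2, an importin that carries proteins through the nuclear pore, fell, as did Cdc5l and Plrg1, which are core partners in the spliceosome, and Hnrnpab, an RNA-binding protein, while Zfp13, a zinc finger protein, rose. No list of such genes was tested. Kpna2 had the smallest p of all genes. Its vehicle arrays read -2.05, -2.04, -1.96, -1.90 and -1.78, those of 18 µg -2.75, -2.73, -2.67, -2.56 and -2.41, and those of 54 µg -2.46, -2.44, -2.42, -2.41 and -2.37. The 5 arrays of 54 µg were closely grouped (SD 0.03), and no treated array reached the vehicle range. The log2 difference was -0.58 ± 0.06 (SE), a fold of 0.671 (limma, adjusted p = 0.000459). Cdc5l was lower by -0.39 ± 0.05 (SE, adjusted p = 0.0042) and Plrg1 by -0.55 ± 0.08 (SE, adjusted p = 0.00918), both without overlap. For Hnrnpab (-0.34 ± 0.06, SE) 1 array of 54 µg, at -0.26, lay within the vehicle range, and its 3 probes disagreed, at -0.34, -0.28 and -0.03. Zfp13 rose by 0.39 ± 0.07 (SE, adjusted p = 0.048) and was the call nearest to the threshold.

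Adamts9, a secreted protease that cleaves proteoglycans of the extracellular matrix, also fell. Adamts9 read 0.87, 1.04, 1.21, 1.27 and 1.31 on the vehicle arrays. It read 0.28, 0.36, 0.36, 0.44 and 0.69 at 18 µg and 0.25, 0.42, 0.46, 0.50 and 0.60 at 54 µg. The highest treated array was thus below the lowest vehicle array, and the log2 difference was -0.70 ± 0.09 (SE), a fold of 0.614 (limma, adjusted p = 0.00154). Its 2 probes read -0.28 and -1.13, and the first was well above background on 4 of the 19 arrays of vehicle and NRCWE-025.

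Ctps, an enzyme of CTP synthesis, fell by 0.55 ± 0.10 (log2, SE, adjusted p = 0.0281) and Scrg1, a gene first described in scrapie, fell by 0.51 ± 0.09 (SE, adjusted p = 0.034), both without overlap. Scrg1 was well above background on 7 of the 10 treated arrays. Gpr157, a receptor, passed the test (adjusted p = 0.034) but was not well above background on any of the arrays, so no fold is given. Pttg1, which encodes securin, rose by 0.30 ± 0.05 (SE, adjusted p = 0.034), Frat1, a component of Wnt signalling, by 0.37 ± 0.06 (SE, adjusted p = 0.0164) and Mettl27, a methyltransferase-like gene, by 0.29 ± 0.05 (SE, adjusted p = 0.0381). The 3 probes of Frat1 read 0.39, 0.17 and -0.01, the last not above background on any array. The largest difference was that of Pisd-ps3, a pseudogene of phosphatidylserine decarboxylase with similar copies elsewhere, at 1.39 ± 0.21 (SE, adjusted p = 0.0068). Its vehicle arrays lay between -0.31 and 0.89 and its treated arrays between 0.88 and 2.22, and its probes read 0.54 and 2.24, so which copy was measured is uncertain. Within the shared scan days Pisd-ps3 differed by 0.22 and 1.52.

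The doses were not distinguishable. Against vehicle, 18 µg alone gave 11 called genes (0.0589%) and 54 µg alone 5 (0.0268%). The first count fell to 3 to 5 without vehicle replicate 1, 2 or 3 or replicate 1, 2, 3 or 5 of 18 µg. The second fell to 0 to 3 without vehicle replicate 1, 3 or 4 or replicate 1, 2, 3 or 4 of 54 µg, and was 8 without vehicle replicate 5. Of the 17 genes, 9 were called at 18 µg, 5 at 54 µg, 3 (Kpna2, Adamts9 and Cirbp) at both and 6 at neither. The 2 further genes called at 18 µg alone were Tmem44 and Mrgpre (singled out after their values were seen). The test of 54 against 18 µg called 0 of 18660 genes (0%, limma, smallest adjusted p = 0.9995). At an unadjusted p under 0.05 there were 341 genes (1.83%), where chance gives 933. Some slides held arrays of both doses, and with slide as a block 0 genes were again called. The unadjusted count was then 802 as a random block and 906 as a fixed block in a fit of all 69 arrays. Kpna2 was 0.20 ± 0.07 (SE) higher at 54 than at 18 µg and Hnrnpab 0.18 ± 0.07 (SE) higher, and Hspa8 was 0.28 ± 0.14 (SE) lower, each with an adjusted p of 0.9995 in limma. With 5 mice a dose, a p that misses the threshold does not show that the doses act alike.

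Genes of inflammation were not called, and over all genes 0.0911% were called. For the list counts here and below, 4.89% of all genes were higher and 5.33% lower at an unadjusted p under 0.05. Of the 26 chemokines tested, Ccl3, a macrophage chemokine, differed by 0.31 ± 0.14 (SE, adjusted p = 0.464), Ccl11, which attracts eosinophils, by -0.26 ± 0.11 (SE, adjusted p = 0.417), and none of the rest had an unadjusted p under 0.05. The acute phase proteins had 3 of 21 higher and 2 lower at that level, with a median of -0.03. The smallest p was that of Fgb, a fibrinogen chain (adjusted p = 0.237 by limma). Fgb was not well above background on any vehicle array and was on 7 of the 10 treated arrays, so no fold is given. None of the 23 interferon-stimulated genes had an unadjusted p under 0.05. Among 23 macrophage markers, Fcgr3, an activating Fc receptor, was nearest to a call, at -0.43 ± 0.09 (SE, adjusted p = 0.0688). Its vehicle arrays lay between 0.38 and 0.83, and 9 of the 10 treated arrays lay below them.

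Neutrophil markers leaned lower. Of 15 tested, 0 were called, and 6 were lower and 0 higher at an unadjusted p under 0.05. Over all genes, 5.33% were lower and 4.89% higher at that level. The median of the list was -0.35 (log2). Against the same vehicle arrays it was -0.20 at 162 µg and -0.33 for NRCWE-030 at 18 and 54 µg. For 18 and 54 µg of NRCWE-025 on day 1, against the vehicle mice of that day, it was 0.19. Retnlg, a resistin-like gene of neutrophils, differed by -1.02 ± 0.29 (SE, adjusted p = 0.21) and Cxcr2, their chemokine receptor, by -0.51 ± 0.19 (SE, adjusted p = 0.377). Within the shared scan days Retnlg differed by -1.23 and 0.62, in opposite directions. The mean level of the list lay between 1.39 and 2.05 on the vehicle arrays and between 1.08 and 1.73 on the treated arrays, so the groups overlapped. In bulk lung, fewer cells of a type and less RNA per cell cannot be told apart. Of the mesothelial markers, genes of the cells that line the lung surface, 7 of 8 were below 0, the median was -0.32, and the mean level was 1.49 to 1.71 on the vehicle arrays and 0.63 to 2.03 on the treated arrays. Alveolar type 1 markers were below 0 in 7 of 8 (median -0.20) and surfactant and alveolar type 2 markers in 12 of 13 (median -0.13), with 1 and 0 members at an unadjusted p under 0.05. Their part in the other results was not tested.

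Glucocorticoid and clock genes were next. Of 17 glucocorticoid and fasting-responsive genes tested, 6 were lower and 0 higher at an unadjusted p under 0.05, with 0 called. The median, -0.35, is the value of Lcn2 here and in the neutrophil list, since both lists hold it. Klf9, a transcription factor induced by glucocorticoids, differed by -0.56 ± 0.14 (SE, adjusted p = 0.132), with 9 of 10 treated arrays below all vehicle arrays, and Tsc22d3, which encodes the glucocorticoid-induced leucine zipper, by -0.63 ± 0.21 (SE, adjusted p = 0.288). Per1, a clock repressor that glucocorticoids also induce, differed by -0.71 ± 0.25 (SE, adjusted p = 0.336). Per2, its partner, differed by -0.40 ± 0.09 (SE, adjusted p = 0.0873) and was called with slide as a random block (adjusted p = 0.0363). Over the 17 core clock genes 1 was higher and 3 were lower at an unadjusted p under 0.05. The time of day of collection was not given in the sources used here.

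Immediate early genes, which respond within minutes to stimulation or tissue handling, had 5 of 26 higher and 0 lower at an unadjusted p under 0.05, and 0 called. Ccn1, a matricellular protein, differed by 0.88 ± 0.29 (SE, adjusted p = 0.291) and was called when vehicle replicate 5 was left out (1.25, adjusted p = 0.025). On the vehicle arrays Ccn1 read -2.27, -2.06, -2.06, -1.32 and -0.07, and on the treated arrays it lay between -1.08 and -0.35, so the highest vehicle array stood above all treated arrays. Collagen chains had 1 of 21 higher, Col8a1, and 6 lower, with a median of -0.14 and 3 members above 0. Col5a2, a fibrillar chain, differed by -0.49 ± 0.12 (SE, adjusted p = 0.126) and Col1a2, a chain of type I collagen, by -0.61 ± 0.25 (SE, adjusted p = 0.418). Antioxidant targets of Nrf2 were above 0 in 18 of 20, with a median of 0.19 and 3 higher and 1 lower at that level. The median was 0.05 at 162 µg. The mean level was 0.25 to 0.43 on the vehicle arrays and 0.31 to 1.23 on the treated arrays. The top value was that of replicate 5 of 18 µg, scanned on the last day, and the next was 0.68. Osgin1, a growth inhibitor induced by oxidative stress, differed by 0.31 ± 0.10 (SE, adjusted p = 0.272), and Gsta3, a glutathione transferase, by 0.35 ± 0.12 (SE, adjusted p = 0.322).

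No list other than that of heat shock genes held a called gene, where 0.0911% of all genes were called. None of the 21 T and NK lymphocyte markers, 17 B lymphocyte markers, 22 cholesterol synthesis genes and 19 cytochrome P450 genes had an unadjusted p under 0.05. Mitosis genes were above 0 in 25 of 27 (median 0.11), but none had an unadjusted p under 0.05. Atrial and ventricular muscle markers, which in lung come from the heart muscle around the pulmonary veins or from heart tissue, were above 0 in 17 of 19 (median 0.30), with 1 member higher at that level. Their mean level spanned 1.08 to 2.66 on the vehicle arrays and 0.48 to 3.53 on the treated arrays. Their part in the other results was not tested. The 10 biclusters that the study had drawn from mouse models of lung disease gave 0 called genes over 190 entries tested. With 0.0911% of all genes called, a count of 0 says little about these sets. The study tested them in another way, comparing log2 F-statistics of the dose effect in a set with those of all genes. It reported bicluster-3 as enriched for most NMs. Bicluster-3, linked there to chemokine activity, had a median of -0.05 with 0 higher and 1 lower at an unadjusted p under 0.05. Bicluster-7, linked there to pulmonary fibrosis, had a median of 0.04 with 3 higher and 0 lower, and bicluster-6 a median of -0.10 with 4 of 23 lower. Bicluster-9, which holds muscle genes, had a median of 0.27.

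**Figure D4:**
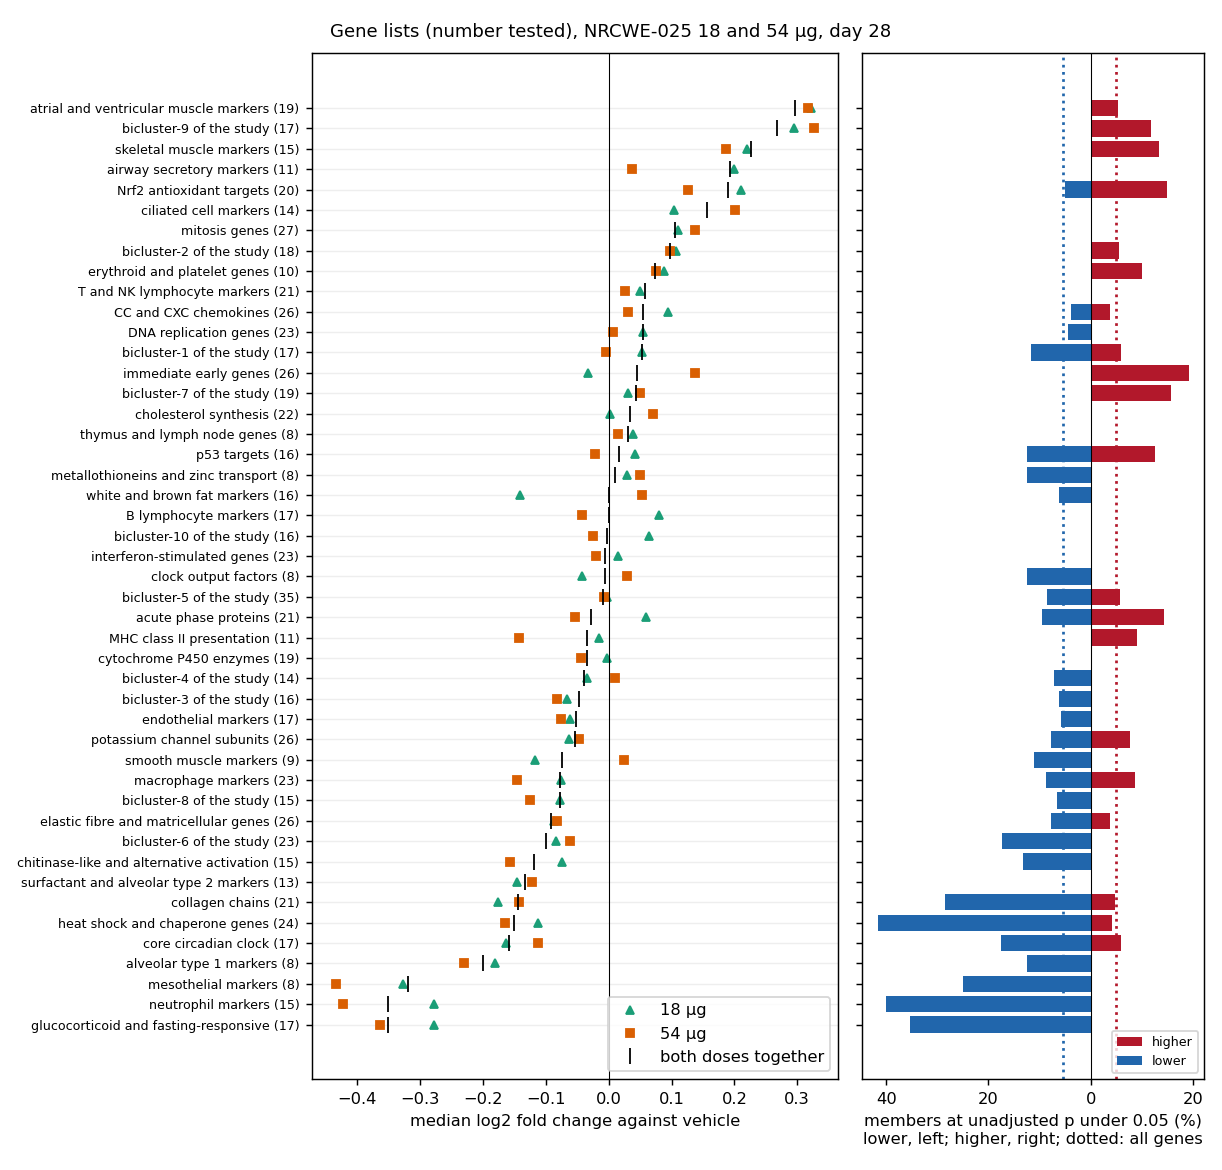
The 46 gene lists (number of members tested in brackets), ordered by the median log2 fold change of both doses together against vehicle (black ticks), with 18 µg (green triangles) and 54 µg (orange squares). The right panel gives the percent of members lower (blue) and higher (red) at an unadjusted p under 0.05, with dotted lines at 5.33% and 4.89%, the shares over all genes. Heat shock, neutrophil and glucocorticoid lists have the largest shares on the lower side.

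The higher dose, the other material and day 1 were set against the lower doses. The test of 162 µg against 18 and 54 µg called 0 genes (0%; limma, smallest adjusted p = 0.249), with 912 at an unadjusted p under 0.05 (4.89%). Hspa8 differed from vehicle by -1.06, Cirbp by 0.87 and Adamts9 by -0.68 at 162 µg, against the same vehicle arrays. All 17 called genes lay on the same side of the vehicle mean at 162 µg as at the lower doses. The same held for NRCWE-030 at 18 and 54 µg. Since the vehicle arrays were shared, these signs are not independent. Between NRCWE-030 and NRCWE-025 at 18 and 54 µg, 70 genes differed (0.375%), 43 higher and 27 lower with NRCWE-030, and none of the 17 was among them. The 4 with the smallest p were Dbp, Nr1d2 and Per2, which belong to the circadian clock, and Adm, which encodes the vasodilator adrenomedullin. Dbp was 2.09 ± 0.27 (log2, SE) higher with NRCWE-030 (limma, adjusted p = 2.77e-06), Nr1d2 1.09 ± 0.15 (SE) and Per2 0.66 ± 0.09 (SE), whereas Adm was lower, at -1.04 ± 0.16 (SE, adjusted p = 0.000111). With scan day as a fixed block 5 genes differed between the materials, and with slide as a fixed block 8. The count was 31 to 45 without replicate 1, 4 or 5 of 54 µg or replicate 1 or 5 of 18 µg of NRCWE-025, or replicate 1 or 2 of 54 µg of NRCWE-030, and 117 without replicate 3 of 54 µg of NRCWE-025.

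The effect of the lower doses on day 28 differed from that on day 1 in 10 genes (0.0536%), 4 with a higher and 6 with a lower value on day 28. The count was 2 to 6 without vehicle replicate 1, 2 or 3 of day 28 or 1, 2 or 5 of day 1, 16 without vehicle replicate 4 of day 28 and 17 without vehicle replicate 3 of day 1. Adamts9 was the clearest, with a difference of effects of -0.94 ± 0.12 (SE, adjusted p = 5.67e-06). Kpna2 (-0.72 ± 0.15, SE, adjusted p = 0.0253) and Scrg1 (-0.65 ± 0.12, SE, adjusted p = 0.00884) also passed, as did Grb7, an adaptor of receptor tyrosine kinases, at 0.69 ± 0.13 (SE) and Pprc1, a coactivator of mitochondrial gene expression, at -0.86 ± 0.16 (SE). Here the vehicle groups bore on the values. Adamts9 was 1.14 ± 0.18 (SD, n = 5) in the day 28 vehicle mice and 0.40 ± 0.20 (SD, n = 5) in those of day 1, next to 0.44 for the mean of the lower doses on day 28. Kpna2 was -1.95 in the vehicle mice of day 28, -2.44 in those of day 1 and -2.52 at the lower doses. Of the 17 called genes, 12 had a day 28 vehicle mean more extreme than the means of all 13 other groups of the series. In all 17 the day 1 vehicle mean lay on the treated side of the day 28 vehicle mean, and in 11 it was nearer to the treated mean. These genes were called because the day 28 vehicle arrays stood away from the treated ones, so the counts are a description; a difference between the vehicle groups and a difference due to the NM cannot be told apart by them.

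**Figure D5:**
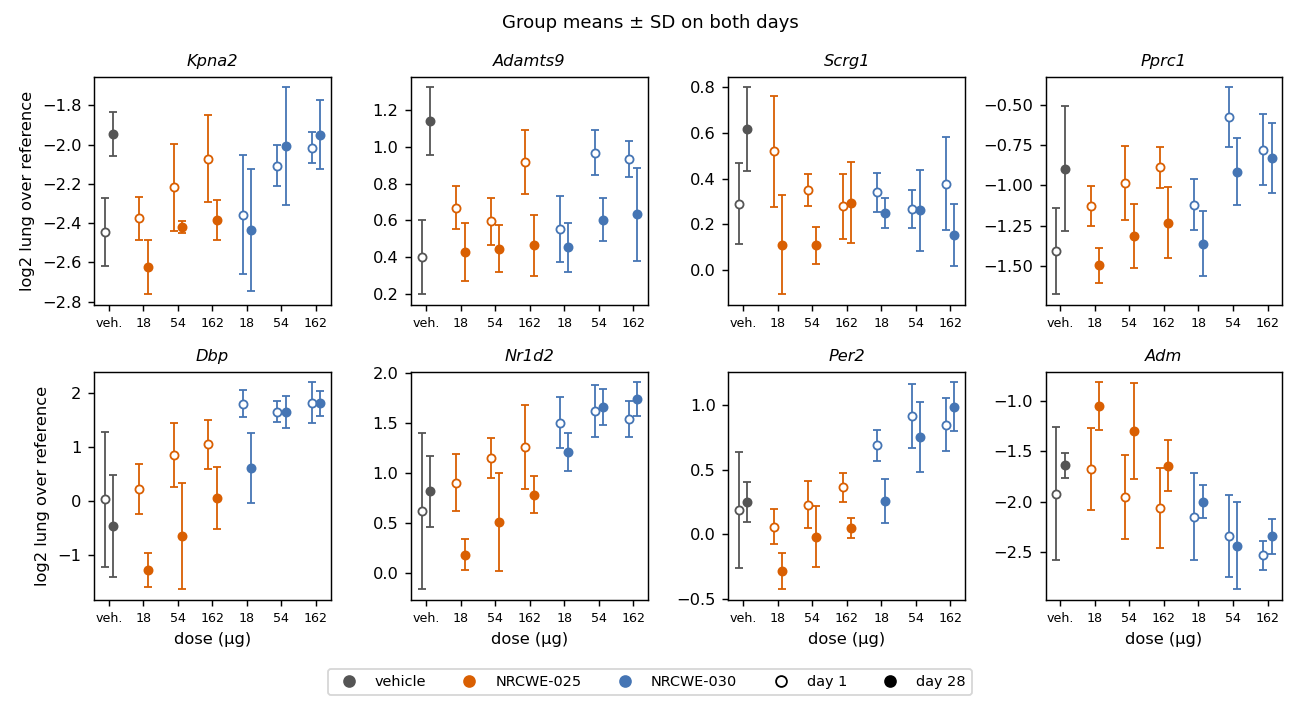
Group means ± SD (log2 lung over reference) of 8 genes in all 14 groups, with day 1 as open and day 28 as filled circles, vehicle in grey, NRCWE-025 in orange and NRCWE-030 in blue. In Adamts9 the day 28 vehicle mean, at 1.14, lies above every other group, and in Dbp the groups of NRCWE-030 on day 28 lie above those of NRCWE-025.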

How the data were processed

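Scanner files of 69 two-colour arrays were used. The deposited median spot and local background signals are linear intensities, uncorrected; the deposited scanner log ratio is a log10 of Cy5 over Cy3; deposited flags are 0 or 1; and the deposited series matrix holds log2 values that the authors made by LOWESS within arrays. Limma 3.58.1 (R 4.3.3) was used. A local background that the scanner software marked as an outlier was set to the median of the unmarked ones of its array. Normexp (offset 50) and loess within arrays followed, with no scaling between arrays. Of 41174 probes, 27484 (66.8%) were named through RefSeq (GRCm38.p6, names and promoters only; the arrays were designed on an earlier build), and medians over probes gave 18660 genes. One fit held the 19 day 28 arrays of vehicle and NRCWE-025; materials and days were compared in a fit of all 69. Tests were two-sided, with Benjamini-Hochberg adjustment. P-values printed with an SE are from limma.

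Named are the called genes, except 1 that is not reported here, the called member or that with the smallest p of each of 46 lists, the 4 genes with the smallest p in every other comparison that called any, and Hspa8; others are said to be singled out. The members and lists were chosen with earlier results of these data known. Of 844 list entries, 810 were tested. The script was tested on simulated data. The number of arrays limits precision.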

Additional observations from a re-analysis of the deposited data

Results flagged for a closer look

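Among the 73 named genes in the vehicle, 18 µg and 54 µg groups of day 28, 219 groups of 5 arrays were examined for 1 array far from the other 4. Chance gives about 1 in 20, or 11, and 9 were found. The numbers that follow are the gap to the nearest array over the range of the group. They were 0.71 for Ccl11 (54 µg, replicate 3), 0.714 for Osgin1 (18 µg, replicate 5), 0.987 for Akap5 (54 µg, replicate 5), 0.815 for Slc4a1 (54 µg, replicate 2), 0.717 for Klf9 (54 µg, replicate 4) and 0.789 for Slc39a4 (54 µg, replicate 4). They were also 0.723 for Kif11 in vehicle replicate 3, 0.962 for Kif11 in replicate 5 of 18 µg and 0.749 for Dntt in vehicle replicate 3. None of the 17 called genes was among them. Akap5, an alveolar type 1 marker, read 5.10 on that array and 6.32 or more on the other 4.

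Effects that differed between materials or days, by the test of the difference, were found in 9 named genes (limma, adjusted p under 0.05). With NRCWE-030 in place of NRCWE-025 at 18 and 54 µg on day 28, the log2 difference was 2.09 for Dbp, 1.09 for Nr1d2, 0.659 for Per2 and -1.04 for Adm. Between day 28 and day 1, the effect of the lower doses of NRCWE-025 differed by -0.938 for Adamts9, 0.688 for Grb7, -0.65 for Scrg1, -0.861 for Pprc1 and -0.725 for Kpna2.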

How the results depend on the processing

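The direction of the 17 called genes was kept under every alternative and with every single array left out, but many calls were not. Kpna2, Adamts9, Cdc5l, Cirbp, Hspa8 and Pisd-ps3 were called with any of 15 arrays left out, Plrg1 and Hspa14 in 14 of 15 such fits, Frat1 in 13, Ctps in 10, Hnrnpab in 8, Pttg1 in 7, Gpr157 and Scrg1 in 6, Mettl27 in 4 and Zfp13 in 2. Of up to 16 other settings, Adamts9, Cdc5l and Pisd-ps3 were called in 15, Cirbp and Hspa8 in 14, Plrg1 and Hspa14 in 13, Kpna2 and Scrg1 in 12, Ctps in 11, Frat1 and Pttg1 in 9, Hnrnpab and Mettl27 in 8, Gpr157 in 6 and Zfp13 in 5. Kpna2 was lost without replacing marked backgrounds, under scaling, with the brightest probe and with the treated arrays on vehicle scan days, at adjusted p = 0.0772 to 0.0869. Hspa8 was lost under scaling (adjusted p = 0.0542) and Cirbp with the treated arrays of other days (0.0584). Both were also lost with the treated arrays on vehicle scan days, at a limma adjusted p of 0.209 for Hspa8 and 0.199 for Cirbp. No paired analysis was possible because the labels give no replicate numbers, and those used here follow accession order.

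In the order both doses together, 18 µg, 54 µg, NRCWE-030 against NRCWE-025, and day 28 against day 1, the reported counts were 17, 11, 5, 70 and 10. They were 9, 0, 2, 9 and 2 with normexp without replacing marked backgrounds, 54, 31, 9, 28 and 16 for slide as a random block, 54, 31, 9, 22 and 22 for scan day as a random block, and 65, 37, 13, 8 and 2 with slide as a fixed block. With scan day as a fixed block the first 4 were 185, 65, 34 and 5. The scanner log ratio gave 65, 46 and, for the materials, 179. No background correction gave 30 for the materials. The series matrix gave 7 at 18 µg and 6 for the days. Scaling between arrays gave 7, 5 and 0 for the first 3. Without the 162 µg arrays the first 2 were 26 and 4, and with all 69 arrays in 1 fit the first was 31. The first 3 were 0, 0 and 0 with the treated arrays scanned on days with a vehicle array and 6, 0 and 1 with the others. Without the last scan day, an alternative chosen after seeing the data, 18 µg gave 6, 54 µg 1, the materials 31 and the days 6. Leaving out 1 array gave 7 to 37, 3 to 16, 0 to 8, 31 to 117 and 2 to 17. The tests of 54 against 18 µg and of 162 µg against the lower doses gave 0 under every alternative, except that 162 µg gave 2 without its replicate 4. The cause of these shifts was not tested. The split of 6 higher and 11 lower became 12 and 11 without background correction, 32 and 33 with the scanner log ratio, 10 and 9 with the series matrix, 2 and 11 with the brightest probe, 12 and 13 without the last scan day, and 1 and 5 with the treated arrays of other days.

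Of uncalled genes, Hp reversed to 0.20 under scaling, 0.083 with slide and 0.032 with scan day as a fixed block; Slc39a4 to 0.035 and Lyz2 to 0.079 under scaling; Nppb to -0.078, Kif11 to -0.035 and Tnnc2 to -0.078 with the scanner log ratio; and Tekt4 to -0.061 without replacing marked backgrounds.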

Other observations

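In the gene lists not described above, no gene was called for 18 and 54 µg together, where 0.0911% of all genes were called. The counts here are of members at an unadjusted limma p under 0.05. Over all genes, 4.89% were higher and 5.33% lower at that level. Of 26 elastic fibre and matricellular genes 1 was higher and 2 were lower, the lowest p being that of Mfap4, a microfibril protein, at -0.43 ± 0.13 (SE, adjusted p = 0.227). Of 16 p53 targets 2 were higher and 2 lower, with Plk2, a stress-induced kinase, at 0.42 ± 0.11 (SE, adjusted p = 0.154). Of 26 potassium channel subunits 2 were higher and 2 lower, with Kcne2, an accessory subunit, at -0.41 ± 0.14 (SE, adjusted p = 0.304). Of 10 erythroid and platelet genes 1 was higher, Slc4a1, the red cell anion exchanger, at 0.54 ± 0.18 (SE, adjusted p = 0.302). Of 15 skeletal muscle markers 2 were higher, and of 11 genes of MHC class II presentation 1 was higher. Of 15 chitinase-like and alternative activation genes 2 were lower. Single members were lower among 23 DNA replication genes, 17 endothelial markers, 16 fat markers, 9 smooth muscle markers, 8 clock output factors and 8 metallothionein and zinc transport genes. None of 14 ciliated cell, 11 airway secretory and 8 thymus and lymph node markers had such a p. Of the other biclusters, 1 held 1 higher and 2 lower of 17, 2 held 1 higher of 18, 4 held 1 lower of 14, 5 held 2 higher and 3 lower of 35, 8 held 1 lower of 15, and 10 held none of 16.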
